A study of Danio rerio with 4 samples.

Results

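The genes described here encode Piwi proteins and the factors that make or stabilise their guide RNAs, and they were compared between gonads of untreated female and male adult zebrafish (Danio rerio, AB strain). The list held 8 genes, and 6 of them (piwil1, piwil2, pld6, henmt1, asz1 and gtsf1) were found by symbol among the 32520 gene IDs of the count table. The other two, mael and mov10l1, had no gene ID in the tables used here and were not analysed. The samples were 2 ovaries and 2 testes, each from 1 fish. These fish were the null controls, kept in water with neither exemestane, an inhibitor of the oestrogen-making enzyme aromatase, nor its solvent DMSO. The methods describe 1 tank per adult group, with the sexes kept apart by a perforated plate. By that account the fish are separate animals of 1 shared tank.

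Piwi-interacting RNAs (piRNAs) are small RNAs of the animal germ line that guide Piwi proteins to transposon transcripts, which the Piwi proteins cut or silence. Precursor RNAs are cut at the surface of mitochondria, loaded into a Piwi protein, trimmed and finally methylated at the end of the chain. Much of this takes place in nuage, granules of RNA and protein near the germ cell nucleus. In mice, most mutants of the pathway are sterile as males, whereas in zebrafish piRNAs are made in ovary and testis alike, and loss of either Piwi protein leads to loss of germ cells.

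The libraries held between 11554811 and 26137839 counts. Oocyte markers (gdf9, bmp15, zar1, figla and buc) reached a summed 3284 and 2485 CPM (counts per 1000000) in ovary, against 28.4 and 34.4 CPM in testis. Spermatocyte markers (sycp1, sycp2, sycp3, dmc1 and spo11) reached 1634 and 1438 CPM in testis, against 13.7 and 16.4 CPM in ovary, so the tissue labels and the markers pointed the same way. Testis replicate 1 stood apart in the skin keratins krt4 and krt5, with a summed 748 CPM against 30.1 CPM in testis replicate 2 and 11.3 and 14.3 CPM in the ovaries. Testis replicate 1 was also higher in the Leydig cell markers insl3, cyp17a1 and star, with a summed 1580 CPM against 511 CPM in testis replicate 2. Its summed liver markers were 22.2 CPM, against 5.62 CPM in testis replicate 2. It also held 61 counts of the oocyte gene zar1, against 6 in testis replicate 2. The other oocyte markers went the other way: gdf9 (51 against 155), bmp15 (29 against 48), figla (8 against 16) and buc (284 against 314). Ovary replicate 1 had 631 counts of dmrt1, listed here as a Sertoli cell marker, against 12 in ovary replicate 2. The other listed Sertoli cell markers that were tested, amh (38 against 73) and gsdf (138 against 222), went the other way. The part of these differences in the results below was not tested, and values without single libraries are given where they change a call or a size.

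All 6 genes were expressed in both sexes, and they did not move together. In testis piwil1, pld6 and piwil2 were higher (male-biased), in ovary asz1 and gtsf1 were higher (female-biased), and henmt1 did not pass the test. Of the 6 genes, 3 were thus male-biased and 2 female-biased at an edgeR adjusted p under 0.05, where 36.7% of the 21815 genes tested were male-biased, 28.5% female-biased and 65.2% biased in either direction. The groups did not overlap for 5 of the 6 genes, against 84.7% of all genes tested. The log2 fold changes (testis over ovary) ran from -1.89 to 3.12, with a median of 0.09, and the median of all genes tested was 0.45. In bulk gonads a difference in how many cells carry a transcript and a difference in its amount per cell cannot be told apart.

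**Figure D1:**
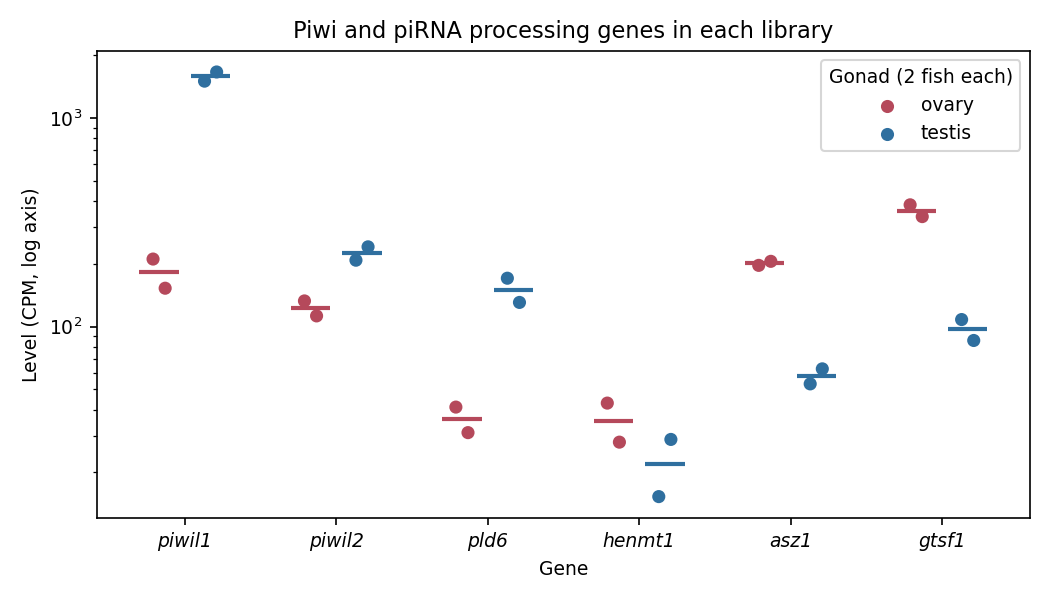
Level of each gene in each library, in CPM on a log axis. Points are single libraries (2 ovaries, 2 testes) and bars are group means. Testis points of piwil1, piwil2 and pld6 lie above both ovary points, those of asz1 and gtsf1 lie below, and those of henmt1 overlap with ovary.

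The Piwi proteins were examined first. piwil1 (ENSDARG00000041699), which encodes the zebrafish Piwi protein Ziwi, had 1502 and 1662 CPM in the testes (22892 and 26023 counts), against 211 and 153 CPM in the ovaries (3979 and 2271 counts). Both testes lay far above both ovaries, and replicates differed by at most 1.38-fold. The testis mean of 1582 ± 113 CPM (SD, n = 2) was 8.71-fold the ovary mean of 182 ± 41.0 CPM (SD, n = 2). The log2 fold change was 3.12 with an SE of 0.41 (adjusted p 0.0014, edgeR). This lay at the 77.8th percentile of the log2 fold changes of all genes tested, so a large number of genes were more strongly male-biased. Without each library in turn the log2 fold change of piwil1 ran from 2.82 to 3.38.

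piwil2 (ENSDARG00000062601), which encodes the other zebrafish Piwi protein, Zili, had 208 and 241 CPM in the testes, against 133 and 112 CPM in the ovaries. The groups did not overlap, but the distance between them was much smaller than for piwil1. The log2 fold change of piwil2 was 0.87 with an SE of 0.23 (adjusted p 0.0166, edgeR), a 1.83-fold difference of the means, and it lay at the 55.4th percentile of all genes. The call depended on single libraries. It was not made without ovary replicate 2, with a log2 fold change of 0.67 (edgeR adjusted p 0.0941), or without testis replicate 2, with 0.75 (edgeR adjusted p 0.0521). Measured from the median of all genes, the log2 fold change was 0.42 for piwil2 and 2.67 for piwil1. That of piwil2 turned to -0.27 with no filter beyond 1 count and to -0.060 without ovary replicate 2. It was 1.22 where all 4 samples had to reach 10 counts. That of piwil1 stayed between 1.98 and 3.47 under the alternatives run. With no filter beyond 1 count, the log2 fold change of piwil2 itself was 0.82 and the median of all genes 1.09. At the main setting these were 0.87 and 0.45.

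The unequal change of the Piwi genes was also written as a ratio of the same counts within each library, which no scaling of the libraries alters. This ratio restates the fold changes free of scaling and is not separate evidence. Of the counts of piwil1 and piwil2 together, piwil2 took 38.6% in ovary replicate 1 (95% Wilson interval 37.5% to 39.8%) and 42.4% in ovary replicate 2 (40.9% to 44.0%). In the testes it took 12.2% (11.8% to 12.6%) and 12.7% (12.3% to 13.0%). These intervals cover counting error only. The mean share in testis, 12.4% ± 0.355 (SD, n = 2), lay far below that in ovary, 40.5% ± 2.67 (SD, n = 2), so the sexes differed by far more than the replicates. An exact two-sided permutation test of 2 against 2 libraries gave p = 0.333, the smallest this design allows. The share was not corrected for transcript length, so it compares libraries and does not say which of the genes had more transcripts.

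**Figure D2:**
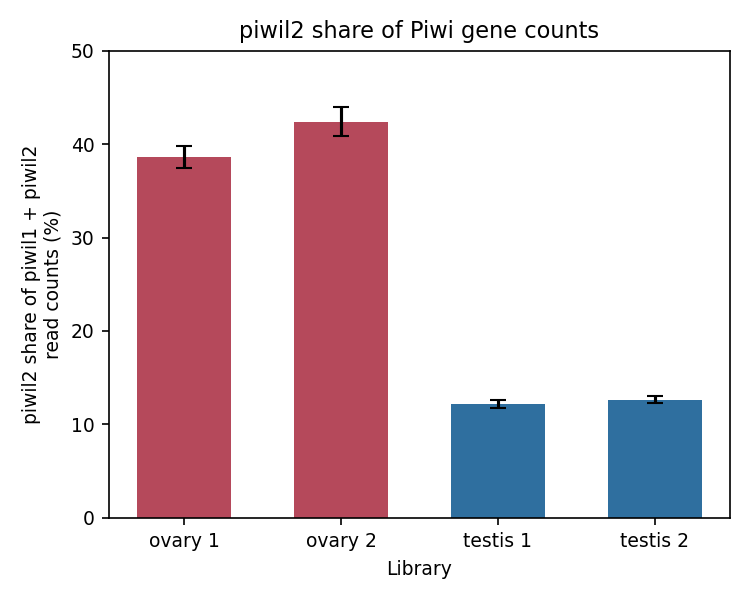
Share of piwil2 in the read counts of piwil1 and piwil2 together, in percent, for each library; error bars are 95% Wilson intervals. The ovaries stand at 38.6% and 42.4% and the testes at 12.2% and 12.7%.

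Among the enzymes that make piRNAs, pld6 was male-biased and henmt1 did not pass. pld6 (ENSDARG00000059951) encodes a nuclease of the outer mitochondrial membrane, the counterpart of Drosophila Zucchini, which cuts piRNA precursors. Its level was 170 and 130 CPM in the testes, against 41.1 and 31.0 CPM in the ovaries. Both testes lay above both ovaries, with a log2 fold change of 2.06 with an SE of 0.26 (adjusted p 0.00124, edgeR) and a 4.18-fold difference of the means. The log2 fold change of pld6 ran from 1.79 to 2.29 without each library in turn. henmt1 (ENSDARG00000018871), the methyltransferase that modifies the end of mature piRNAs, had 15.3 and 28.7 CPM in the testes, against 42.9 and 27.9 CPM in the ovaries. Testis replicate 2 lay between the ovaries, so the groups overlapped, and the testes differed from each other by 1.88-fold. The log2 fold change of henmt1 was -0.69 with an SE of 0.39 (adjusted p 0.166, edgeR) and a 95% interval from -1.64 to 0.27. The interval leaves room for a level in testis well below that in ovary or slightly above it. Its size depended on single libraries, at -0.31 without testis replicate 1, -0.34 without ovary replicate 1, -1.06 without ovary replicate 2 and -1.23 without testis replicate 2, and henmt1 was called in none of these fits (edgeR adjusted p from 0.0510 to 0.532). With libraries scaled by their total counts alone the value was 0.07.

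The nuage scaffold and the Piwi cofactor were both higher in ovary. asz1 (ENSDARG00000004823, also called Gasz) encodes an ankyrin repeat protein that anchors nuage to mitochondria in mouse germ cells. It had 53.1 and 62.7 CPM in the testes, against 196 and 205 CPM in the ovaries, and its ovary replicates were the closest of any of the 6 genes, within 1.05-fold. The log2 fold change was -1.80 with an SE of 0.22 (adjusted p 0.00108, edgeR), a 3.47-fold difference of the means. gtsf1 (ENSDARG00000000887) encodes a small zinc finger protein that assists Piwi proteins in cutting or silencing their targets in mice and insects. Its levels were 108 and 85.7 CPM in the testes, against 383 and 337 CPM in the ovaries, with a log2 fold change of -1.89, an SE of 0.25 (adjusted p 0.0015, edgeR) and a 3.72-fold difference of the means. These changes lay at the 15.9th percentile of all genes for asz1 and at the 14.8th for gtsf1. Without each library in turn they ran from -1.93 to -1.69 for asz1 and from -2.08 to -1.75 for gtsf1. The log2 ratio of asz1 to gtsf1 counts was -0.96 and -0.71 in the ovaries and -1.02 and -0.45 in the testes, and this was the pair among the 15 pairs of the 6 genes whose ratio overlapped between the sexes. For piwil1 against gtsf1, in contrast, the log2 ratio moved from -0.86 and -1.14 in the ovaries to 3.80 and 4.28 in the testes. The share of all gene pairs whose ratio did not overlap was not computed.

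To set these levels beside transcripts that mark germ cells, the counts of each gene were divided by those of ddx4 (vasa), an RNA helicase of nuage, and, as choices made after seeing the data, of the RNA-binding protein genes dazl and dnd1. These markers differed in their own sex bias. ddx4 was male-biased (log2 fold change 1.65 with an SE of 0.36, adjusted p 0.00811, edgeR), dazl was not called (-0.20, edgeR adjusted p 0.561) and dnd1 was female-biased (-2.87, edgeR adjusted p 0.000373). The germ cell genes nanos2, with 0 and 1 counts in the ovaries, and nanos3, with 12 and 7 counts in the testes, were too low in one sex for such a ratio. Relative to ddx4, the log2 ratio of piwil1 was higher in testis by 1.49, whereas those of piwil2 (-0.77), henmt1 (-2.37), asz1 (-3.45) and gtsf1 (-3.55) were lower there. For these 5 genes the groups did not overlap, and each exact two-sided permutation p was 0.333, the smallest possible. Without each library in turn the differences ran from 1.30 to 1.69 for piwil1, from -0.94 to -0.61 for piwil2, from -2.56 to -2.18 for henmt1, from -3.75 to -3.14 for asz1 and from -3.98 to -3.11 for gtsf1. For pld6 the groups overlapped, with a difference of 0.42 that ran from -0.046 to 0.88 without each library in turn. Relative to dazl, piwil1 (3.36), pld6 (2.28) and piwil2 (1.09) were higher in testis and asz1 (-1.58) and gtsf1 (-1.68) were lower, without overlap, while henmt1 overlapped (-0.51). Relative to dnd1 all 6 genes were higher in testis without overlap, from 0.99 for gtsf1 to 6.03 for piwil1. dnd1 itself lay at the 6.6th percentile of the log2 fold changes, so most genes tested were more male-biased than it. Higher values in testis relative to dnd1 are therefore not particular to the 6 genes. ddx4 lay at the 64.1st percentile, so most genes tested were less male-biased than it. Lower values in testis relative to ddx4 are likewise not particular to these genes. dazl lay at the 40.7th percentile. The share of all genes without overlap on the marker scales was not computed. Of the 6 genes, piwil1 was thus higher in testis without overlap on each of the 3 scales, and the direction of the other genes, or whether their groups overlapped, depended on the marker. The 3 scales reuse the same counts of piwil1 and are not separate evidence. ddx4 was the most male-biased of the 3 markers, so genes more male-biased than it tend to lie higher in testis on all 3 scales. Such values are therefore not particular to piwil1 either.

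**Figure D3:**
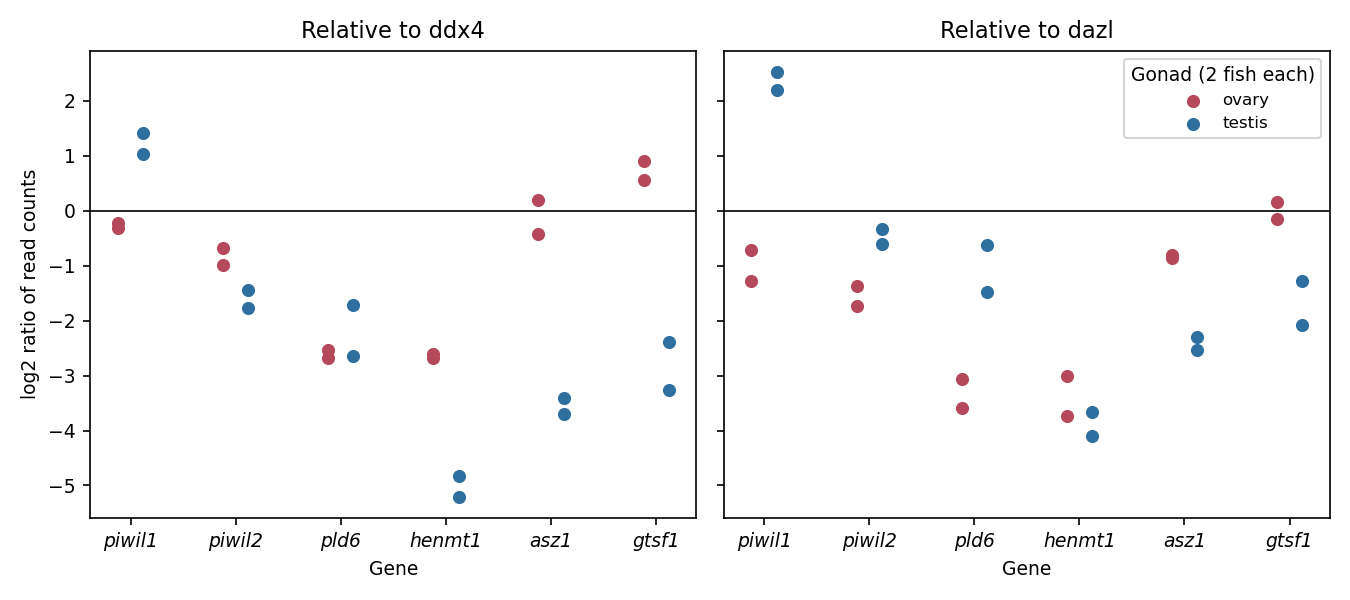
The log2 ratio of the read counts of each gene to those of the germ cell genes ddx4 (left) and dazl (right); points are single libraries (2 ovaries, 2 testes). piwil1 is higher in testis and asz1 and gtsf1 are lower on both scales, while piwil2 lies below its ovary values relative to ddx4 and above them relative to dazl.

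Other genes of the piRNA pathway were then compared. Of a list of 21 genes, 17 were found and tested, of which 5 were male-biased, 3 were female-biased and 9 did not pass, so that 47.1% were called, against 65.2% of all genes tested. The median log2 fold change was 0.28, against 0.45 for all genes. With libraries scaled by total counts alone, 10 of the 17 were male-biased and 2 female-biased. At that scaling 10412 of the 21815 genes tested were male-biased and 3833 female-biased, so the share called on this list was then not below that of all genes. mybl1, encoding the transcription factor A-MYB that drives piRNA precursor genes in mouse spermatocytes, had 111 and 161 CPM in the testes, against 9.58 and 6.18 CPM in the ovaries. Its log2 fold change of 4.11, with an SE of 0.35 (adjusted p 0.000331, edgeR), was the largest of the list and ran from 3.74 to 4.46 without each library in turn. The Tudor domain genes tdrd7a (1.72), tdrd12 (1.43) and tdrd9 (1.04), whose proteins build nuage or bind Piwi proteins, and ddx4 were the other male-biased genes. Of these, tdrd7a, tdrd9 and ddx4 were not called without ovary replicate 2 (edgeR adjusted p 0.0879, 0.145 and 0.0566). Nor was tdrd7a called without ovary replicate 1 (edgeR adjusted p 0.0646) or tdrd9 without testis replicate 2 (edgeR adjusted p 0.0902).

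The female-biased genes of this list were prmt5 (-1.59), the methyltransferase that marks Piwi proteins for binding by Tudor domains, tdrd5 (-1.52) and fkbp6 (-1.43), a chaperone partner needed for piRNA loading in mice. prmt5 had 45.1 and 73.8 CPM in the testes, against 215 and 144 CPM in the ovaries, without overlap. The log2 fold changes of the genes that did not pass lay between -0.64 for tdrkh and 0.71 for stk31, and the others were tdrd1, tdrd6, tdrd15, rnf17, exd1, gpat2 and tex15. tex15 was low in all libraries, at 2.75 to 4.92 CPM, and the other 8 reached at least 55.2 CPM in every library.

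**Figure D4:**
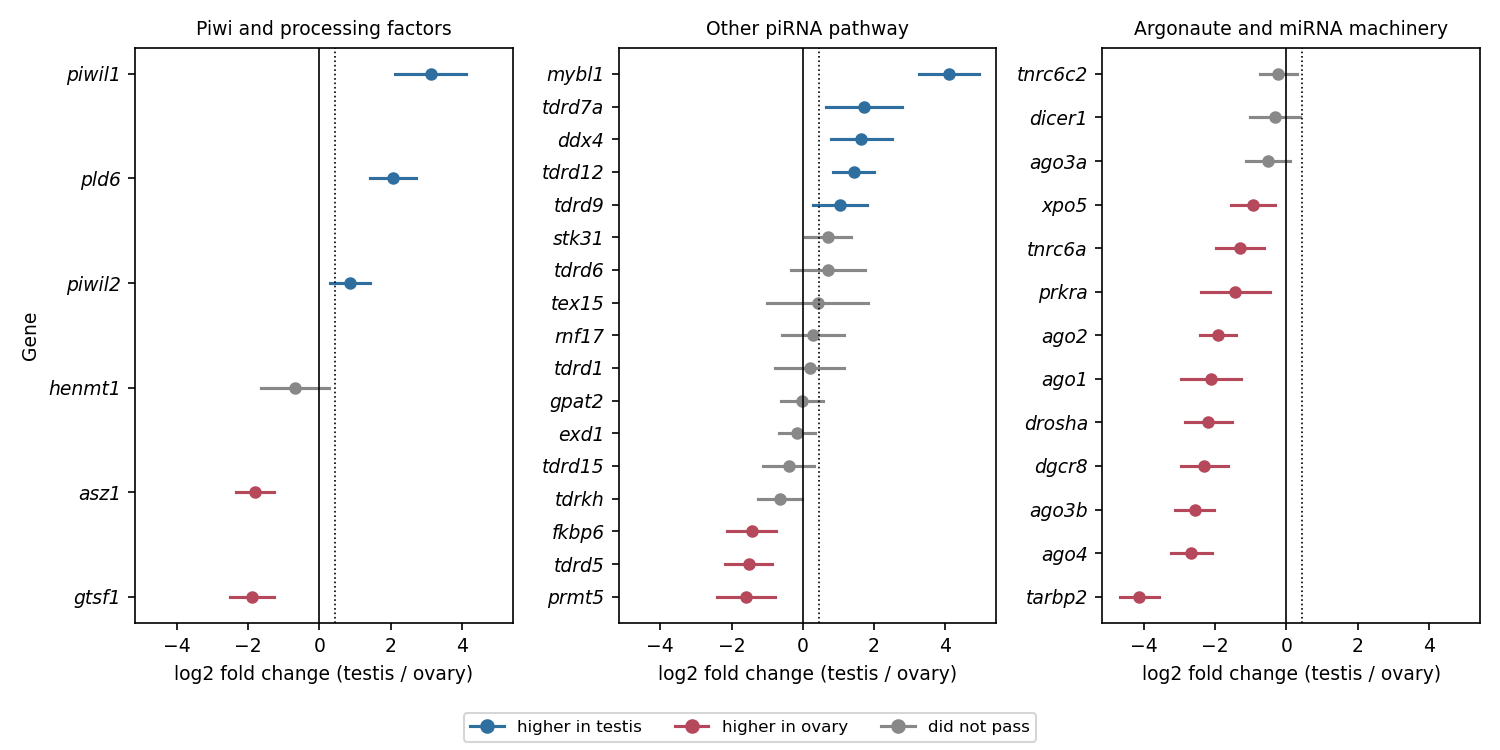
Log2 fold changes (testis over ovary) with 95% intervals, not adjusted for the number of genes, for the 6 genes, the other piRNA pathway genes and the Argonaute and miRNA machinery genes. Colours give the edgeR call at an adjusted p under 0.05, and the dotted line marks the median of all genes tested, 0.45. The first panel spans -1.89 to 3.12, the second has genes on both sides, and in the third every point lies below 0, where ago3a, dicer1 and tnrc6c2 turned above 0 with libraries scaled by total counts alone.

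Argonaute proteins form the sister branch of the Piwi proteins and carry microRNAs (miRNAs) in most cells. Of 15 listed genes for Argonautes and miRNA processing, 13 were found and tested, with 10 female-biased, 0 male-biased and 3 not passing, and a median log2 fold change of -1.92. Over all genes tested 28.5% were female-biased and 36.7% male-biased. The strongest were tarbp2 (-4.13), which encodes a partner of Dicer, ago4 (-2.66), ago3b (-2.57) and dgcr8 (-2.30), the partner of Drosha. tarbp2 had 9.12 and 8.75 CPM in the testes, against 158 and 154 CPM in the ovaries, and its log2 fold change ran from -4.23 to -4.10 without each library in turn. Without ovary replicate 1 or testis replicate 1, 8 of the 13 genes were called. The genes that did not pass were ago3a (-0.52), dicer1 (-0.31) and tnrc6c2 (-0.22). With libraries scaled by total counts alone these lay above 0 and 7 of the 13 genes were female-biased. At that scaling 3833 of the 21815 genes tested were female-biased. Both Piwi genes thus passed as male-biased and 4 of the 5 Argonaute genes as female-biased, the exception being ago3a. The call of piwil2 depended on single libraries, and its log2 fold change lay at the 55.4th percentile of all genes.

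Few relatives of the processing factors could be matched by symbol. Of 8 listed genes, mov10b.1, mov10b.2 and pld3 were matched and tested. The others had no gene ID at hand, which does not show that they are absent from the data. mov10b.2, a relative of the helicase gene mov10l1, was male-biased (log2 fold change 3.79 with an SE of 0.68, adjusted p 0.00429, edgeR) at low levels, with 7 and 12 counts in the ovaries and 106 and 145 in the testes. mov10b.1 (1.01 with an SE of 0.59, adjusted p 0.175, edgeR) and pld3 (-0.15 with an SE of 0.36, adjusted p 0.731, edgeR) did not pass. The value of mov10b.1 depended on the ovaries, at 2.04 (edgeR adjusted p 0.0226) without ovary replicate 2 and 0.40 (edgeR adjusted p 0.422) without ovary replicate 1, while mov10b.2 was called in each fit that left out 1 library (3.32 to 4.33).

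Genes with the pattern most like each Piwi gene were named by the distance between their log2 CPM in the 4 libraries, each gene centred on its own mean, among 5691 named genes whose mean log2 CPM was 5 or more. Nearest to piwil1 were kdm4aa, a histone demethylase gene (distance 0.19), rbm46, which encodes an RNA-binding protein of germ cells (0.19), and clgn, which encodes a chaperone of the endoplasmic reticulum known from mouse sperm development (0.20). Their log2 fold changes were 3.10, 2.99 and 3.32. Nearest to piwil2 were pou2f2 (0.04), ankrd50l (0.05) and supt3h (0.05), with log2 fold changes of 0.87, 0.92 and 0.90. With 4 libraries this likeness is a description, since many genes with a similar difference between the sexes lie close to each other.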

How the data were processed

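Gonad RNA of 2 female and 2 male adult zebrafish was measured by stranded RNA-Seq. Per the labels ribosomal RNA was depleted, while the methods of the study describe poly(A) selection for adult libraries. The deposited table holds raw read counts per Ensembl gene: the authors aligned reads to GRCz11 with Hisat2 2.0.5, removed duplicates with SAMtools 1.5, which compresses abundant genes, and counted exons by strand with HTSeq 0.9.1. Reads shared by near-identical genes may be lost. Symbols were found for 29201 of 32520 IDs, partly in human spelling. RefSeq coordinates at hand are of another build and were not used, nor were sequences or transcript lengths. Levels of different genes, where set side by side or summed, are therefore not corrected for transcript length.

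Counts were analysed with edgeR 4.0.16 in R 4.3.3, with filterByExpr and TMM scaling. The quasi-likelihood test with adaptive dispersion compared testis against ovary. Benjamini-Hochberg adjustment ran over 21815 genes, with adjusted p under 0.05 as the threshold. The code was first run on simulated counts with few changed genes and a common dispersion. That setting differs from these data, so the run does not show how the test performs on them. CPM are counts per 1000000 of the TMM-scaled library size, and SE is the log2 fold change over the square root of F. Total counts were 26137839 and 18085251 in the ovaries and 11554811 and 12382674 in the testes. Replicates differed far beyond sampling noise (chi-square per degree of freedom 73.6 and 37.1). Figures used matplotlib 3.10.9. Alternatives were other scalings, DESeq2 1.42.0, other filters, thinning, a replicate block, the legacy edgeR test and leaving out each library. Described in full were the 6 genes found, and of the other lists up to 4 passing genes in each direction with all that did not pass. tdrd9 was also named, after its values were seen. The 8 genes and the lists were chosen with earlier results of these data known.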

Additional observations from a re-analysis of the deposited data

How the results depend on the processing

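The calls of 5 of the 6 genes were the same under DESeq2 size factors, library size scaling, DESeq2's Wald test, both other filters, thinning, the replicate block and the legacy test, the last chosen after seeing the data; without each library in turn 4 to 5 were called, the gene lost being piwil2. With 3 libraries the lone sample of a sex is assumed to vary like the others. The replicate numbers link no fish of different sexes in the labels, and deviations of same-numbered libraries had a correlation of -0.03. With the replicate block 5 of the 6 genes and 6 of the 17 other pathway genes were called, against 8, tdrd7a and tdrd9 being lost. The number of other pathway genes called ran from 5 to 9 without each library, of Argonaute and miRNA genes from 8 to 10, and of the relatives from 1 to 2, against 1. The relatives had 0 calls with at least 10 counts in every sample, where mov10b.2 was not tested.

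With library size scaling the median of all genes was 1.19 in place of 0.45, and the sign turned for henmt1 (0.070), tdrd15 (0.34), tdrkh (0.10), exd1 (0.58), gpat2 (0.74), ago3a (0.21), dicer1 (0.44), tnrc6c2 (0.51) and pld3 (0.61). With at least 10 counts in every sample it turned for tdrd15 (0.0096), exd1 (0.25), gpat2 (0.39), dicer1 (0.10), tnrc6c2 (0.19) and pld3 (0.27), and with thinned counts for gpat2 (0.035) and pld3 (0.044). Without each library in turn tdrd1 ran from -0.35 to 0.57, rnf17 from -0.17 to 0.76, gpat2 from -0.30 to 0.21 and pld3 from -0.47 to 0.15. None of these passed at the main setting. With library size scaling exd1, gpat2 and rnf17 passed as male-biased (edgeR adjusted p 0.040, 0.021 and 0.026), and the other genes named here did not pass. Measured from the median of all genes, piwil2 stood at 0.42 under TMM, 0.43 under library size scaling, -0.27 with no filter beyond 1 count and 1.22 with at least 10 counts, and henmt1 at -1.14, -1.12, -1.83 and -0.35. With dazl in place of ddx4, chosen after seeing the data, the differences between the sexes were 3.36 (piwil1), 1.09 (piwil2), -0.51 (henmt1), -1.58 (asz1), 2.28 (pld6) and -1.68 (gtsf1). With dnd1, also chosen after seeing the data, they were 6.03, 3.77, 2.17, 1.09, 4.96 and 0.99 in the same order. Depth did not limit the 6 genes, the lowest count being 233, but 4 libraries limit every test. The cause of these changes was not tested.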
